A study of Rattus norvegicus with 20 samples.

Results

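The adrenergic receptors described here are the 6 genes Adra1a, Adra1b, Adra1d, Adra2a, Adra2b and Adrb1, taken by name from the 16672 genes of a table of RNA levels in dissected rat kidney microvessels. All 6 passed the filter on low values. The rats were male Dahl salt-sensitive (SS) rats, a strain that develops hypertension on a high-salt diet, or SS rats labelled Ccl2-/-, called null rats below. Ccl2 is a chemokine that draws monocytes, and the salt-sensitive background is common to both genotypes. There were 4 groups of 5 rats, 1 library per rat: null rats on 4.0% NaCl (null high salt), null rats on 0.3% NaCl (null low salt), SS rats on 4.0% NaCl (SS high salt) and SS rats on 0.3% NaCl (SS low salt), each kept on its diet for 2 weeks.

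Adrenergic receptors are G protein-coupled receptors for noradrenaline, released by sympathetic nerves along renal vessels, and for circulating adrenaline. The alpha1 receptors, encoded by Adra1a, Adra1b and Adra1d, couple to Gq and phospholipase C, which releases calcium and contracts vascular smooth muscle. The alpha2 receptors (Adra2a, Adra2b) couple to Gi and lower cAMP, while the beta1 receptor (Adrb1) couples to Gs and raises cAMP.

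The promoters of 3 members are shown because these genes gave the 3 patterns described below: with salt Adra1d rose in SS rats and fell in null rats, Adra1b rose in both genotypes, and Adra2b rose in null rats. Each is 300 bases of RefSeq sequence on the build GRCr8, 250 before and 50 after the gene's start, written 5′ to 3′ along the gene.
Adra1d promoter, chr3:139262282-139262581, minus strand: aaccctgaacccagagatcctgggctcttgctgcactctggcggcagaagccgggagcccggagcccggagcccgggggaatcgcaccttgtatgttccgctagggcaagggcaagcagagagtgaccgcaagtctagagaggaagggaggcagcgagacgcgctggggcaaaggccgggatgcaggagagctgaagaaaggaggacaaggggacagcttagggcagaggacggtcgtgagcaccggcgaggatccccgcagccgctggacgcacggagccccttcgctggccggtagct
Adra1b promoter, chr10:28814298-28814597, minus strand: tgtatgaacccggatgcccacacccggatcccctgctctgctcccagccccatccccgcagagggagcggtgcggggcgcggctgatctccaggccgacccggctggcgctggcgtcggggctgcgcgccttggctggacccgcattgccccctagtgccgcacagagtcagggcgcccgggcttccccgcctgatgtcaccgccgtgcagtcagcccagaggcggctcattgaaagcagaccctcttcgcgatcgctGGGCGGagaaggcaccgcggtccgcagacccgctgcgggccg
Adra2b promoter, chr3:135038231-135038530, plus strand: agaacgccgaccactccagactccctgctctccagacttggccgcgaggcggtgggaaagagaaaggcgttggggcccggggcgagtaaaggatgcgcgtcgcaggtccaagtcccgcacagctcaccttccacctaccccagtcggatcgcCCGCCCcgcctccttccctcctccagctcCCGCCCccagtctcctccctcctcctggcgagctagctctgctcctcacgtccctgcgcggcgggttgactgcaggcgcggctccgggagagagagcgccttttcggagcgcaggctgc
Capitals mark the GC box GGGCGG on either strand (printed as CCGCCC where it lies on the other), which Adra1b held once, Adra2b 2 times and Adra1d not at all. Of 33469 rat promoters of this length, 33.1% held it. The cAMP response element TGACGTCA, found in 1.83% of promoters, and TATAAA, found in 14.2%, were in none of the 3 windows, nor were CANNTG (72.1%) and CCAAT (37.5%). GC content was 65.7% for Adra1d, 72.0% for Adra1b and 68.7% for Adra2b, against a median of 51.7% over all promoters. All motifs were searched on both strands. A match describes the letters only.

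The libraries held 22.0 to 47.9 M reads, and the 6 receptor genes had 23 to 4183 reads each per library. Values are the authors' normalized counts, which are not corrected for gene length, so levels are compared between groups and never between genes. Ccl2 averaged 98.3 ± 21.0 normalized counts in null rats and 285 ± 113 in SS rats on high salt, and 173 ± 35.4 in null rats and 187 ± 28.5 in SS rats on low salt (SD, n = 5 each). The transcript was thus still detected in null rats, and directions that involve the null low-salt libraries rest on their labels. All 12 smooth muscle markers were detected, at 0.219% to 0.283% of reads outside mitochondrially encoded genes as group means. Proximal tubule markers took 1.30% to 1.60%, so the material also held tubule RNA. Marker shares below are percentages of the same reads. Principal components set SS high-salt rat 1 (the second component) and null low-salt rat 4 (the third) away from the remaining libraries, and values without them are given below for the receptor and signalling genes whose calls ended or arose when they were left out. In bulk RNA, fewer cells of a type and less RNA per cell cannot be told apart, which applies to every level below.

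With high salt 3 of the 6 receptor transcripts rose in each genotype, Adra1b in both, while Adra1d rose in SS rats and fell in null rats. The Adra1d rise was near the threshold and kept its call in 20 of 36 alternatives. Adra2a in null rats fell just short of a call (0.92, adjusted p = 0.0526). The salt effects on Adra1a and Adra2a were not shown to differ between genotypes. In SS rats 3 of the 6 genes rose with salt (Adra1b, Adra1d and Adra2a) and 0 fell, beside 9.52% higher and 7.73% lower among all 16153 genes tested. In null rats 3 rose (Adra1a, Adra1b and Adra2b) and 1 fell (Adra1d), beside 3.06% and 2.45% of all genes. The median log2 difference of the 6 genes was 0.31 in SS rats, where all genes had a median of -0.0039, and 0.55 in null rats, where all genes had -0.0043. Values did not overlap between diets for 1 of the 6 genes in SS rats, beside 9.32% of all genes, and for 5 of the 6 in null rats, beside 10.8%. Between genotypes they did not overlap for 1 of the 6 on high salt, beside 8.41%, and for 0 on low salt, beside 3.69%. Between genotypes on high salt, 1 gene (Adra1d) was lower in null rats and 0 were higher, beside 4.82% lower and 3.70% higher of all genes. On low salt 0 of the 6 differed between genotypes by limma, edgeR or DESeq2, beside 0.452% higher and 0.105% lower of all genes, although 2 of the 6 (Adra2a and Adra2b) had an unadjusted limma p under 0.05. The salt effect itself differed between genotypes for 2 genes, higher in null rats for Adra2b and lower for Adra1d, beside 0.774% and 1.76% of all genes. When libraries were scaled to their totals, all 6 genes were called higher with salt in SS rats, and Adra1b, Adra2a and Adrb1 were called higher in null than in SS rats on low salt. With it the all-gene median shifted by 0.38 and 0.26 in these comparisons. The 5 comparisons share groups: the null high-salt libraries, for example, enter both the salt effect in null rats and the contrast of genotypes on high salt.

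**Figure D1:**
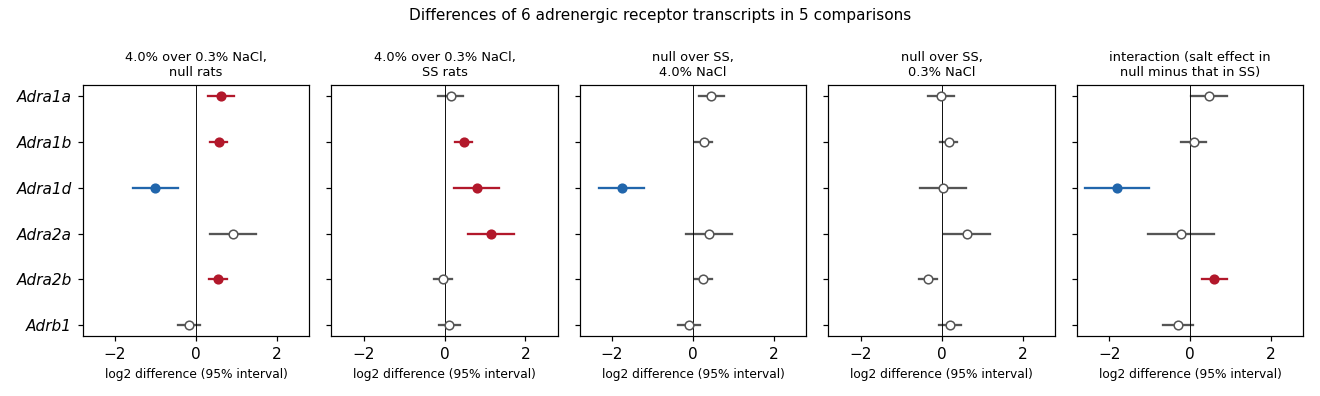
Log2 differences of the 6 receptor transcripts (points) with 95% intervals (lines) in 5 comparisons, each from limma over 16153 genes. Adra1d lies at -1.77 for null against SS rats on high salt, while Adra1b is above 0 for salt in both genotypes.

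Adra1d, which encodes the alpha1D receptor known from rats for contraction of the aorta and other conduit arteries, had the largest difference between genotypes on high salt of the 6 genes. Its normalized counts in null rats on high salt were 211, 129, 170, 220 and 191. In SS rats on high salt they were 1370, 727, 754, 390 and 306. All 5 null rats lay below all 5 SS rats, and the SS values spread widely, with rat 1 highest. On low salt the values were 472, 351, 308, 332 and 373 in null rats and 293, 454, 423, 331 and 301 in SS rats, which overlap over most of their range.

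On high salt Adra1d averaged 184 ± 36.3 in null rats and 710 ± 419 in SS rats, a log2 difference of -1.77 ± 0.27 (adjusted p = 5.14e-04), the 39th smallest p of all genes tested. This call held in all 36 alternative analyses, with adjusted p between 8.85e-08 and 0.00954. Without SS rat 1 the difference was -1.48 (adjusted p = 9.41e-04). On low salt the means were 367 ± 63.3 in null rats and 360 ± 73.4 in SS rats, a difference of 0.03 with a 95% interval of -0.52 to 0.59.

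With salt, Adra1d fell in null rats by 1.00 ± 0.27 on the log2 scale (adjusted p = 0.0334), with no overlap between the diets. In SS rats it rose by 0.80 ± 0.27 (adjusted p = 0.0439), but only rats 1, 2 and 3 of the high-salt group exceeded the low-salt range. The interaction, null salt effect minus SS salt effect, was -1.80 ± 0.38 (adjusted p = 0.0166), and -1.51 without SS high-salt rat 1 (adjusted p = 0.0168). It was not called with the tubule score as a covariate (-1.90, adjusted p = 0.352), where 0 of all genes were. Ordered by mean, SS high salt came first, then null low salt and SS low salt, and null high salt last. The first 3 overlapped in range, and null high salt overlapped with none.

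The rise in SS rats sat close to the threshold. It missed it without any 1 of SS high-salt rats 1, 2 and 3 (adjusted p = 0.113, 0.0950 and 0.0978), SS low-salt rats 1, 3, 4 and 5 (0.0952, 0.0510, 0.0703 and 0.0906), null high-salt rats 3 and 5 (0.0521 and 0.0514) or null low-salt rats 2 and 5 (0.0524 and 0.0515). Without SS high-salt rat 1 its size was 0.51. Quantile normalization (adjusted p = 0.055), the 2 groups fitted alone (0.124) and the tubule or mitochondrial covariate (0.374 and 0.32) also ended it. With the tubule and the mitochondrial covariate the size of the rise was 0.91 and 0.71. The fall in null rats missed it without null high-salt rats 2, 3 or 5 (adjusted p = 0.0828, 0.0646 and 0.0628) or null low-salt rats 1, 2, 4 or 5 (0.0696, 0.0546, 0.0514 and 0.0625), with sizes from -0.88 to -1.03. This fall kept its call in 29 of 36 alternatives, with an adjusted p of 0.00618 without SS high-salt rat 1. The fit shares 1 spread over all 4 groups. The SD of Adra1d was 59.1% of the mean in SS high salt and 17.2% to 20.4% in the other groups.

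**Figure D2:**
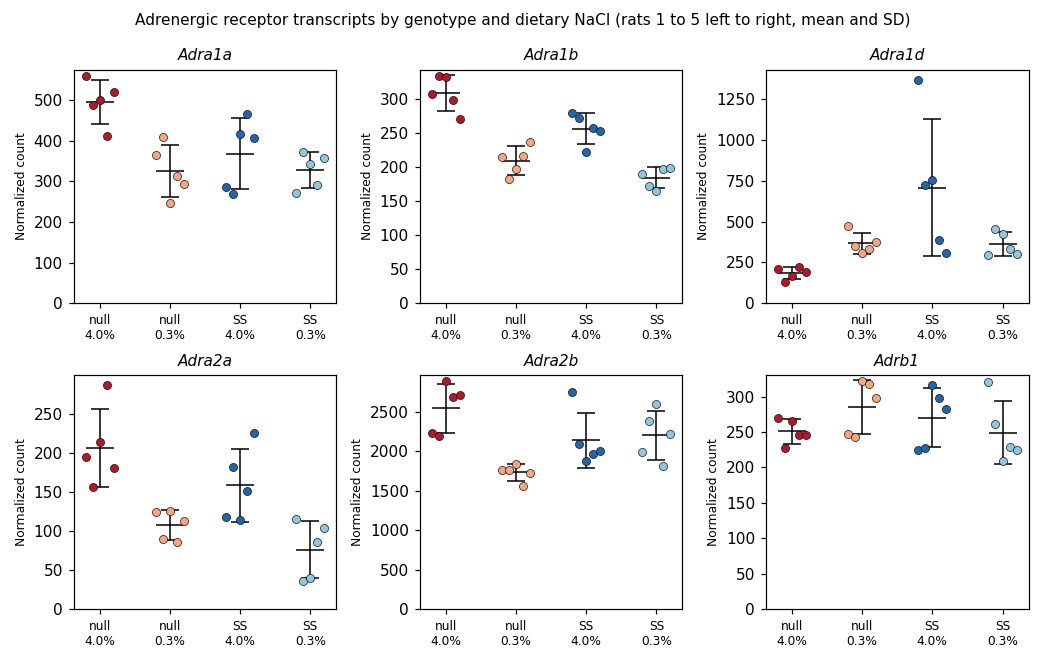
Normalized counts of the 6 receptor genes in each library, rats 1 to 5 from left to right within a group, with the group mean and SD. Adra1d is lowest in null rats on high salt (129 to 220) and reaches 1370 in rat 1 of the SS high-salt group.

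Relative to the other alpha1 receptors of the same library, Adra1d stood apart in null rats on high salt. Reads of Adra1d per read of Adra1b were 0.687, 0.388, 0.511, 0.739 and 0.705 there. In SS rats on high salt this ratio was 4.92, 2.68, 3.41, 1.52 and 1.21. The null high-salt values were below those of all 15 other libraries, since the null low-salt group ranged from 1.54 to 2.21 and the SS low-salt group from 1.52 to 2.65. Adra1d made up 18.7% ± 3.73 of alpha1 reads in null rats and 49.9% ± 16.3 in SS rats on high salt, and 40.6% ± 2.94 in null rats and 41.1% ± 4.41 in SS rats on low salt (SD, n = 5 each). These ratios are not corrected for gene length and describe change between groups only. Adra1b and Adra1a themselves rose with salt in null rats (0.56 and 0.62 on the log2 scale), so the ratios do not measure Adra1d alone.

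Adra1d was set against smooth muscle RNA in the same way. Per 1000 reads of the 12 smooth muscle markers there were 3.01 ± 0.72 Adra1d reads in null rats and 13.2 ± 9.83 in SS rats on high salt, and 5.45 ± 0.78 in null rats and 6.55 ± 1.53 in SS rats on low salt. The null high-salt range of 1.91 to 3.92 again lay below the other groups, whose lowest value was 4.32. None of the 12 smooth muscle markers was called for salt in either genotype (0 of 12 higher and 0 of 12 lower in each). Among all genes the shares were 9.52% higher and 7.73% lower in SS rats and 3.06% and 2.45% in null rats. For a list of 12 genes these counts are near those shares. On high salt 1 of 12, Lmod1, was higher in null than in SS rats, beside 3.70% of all genes. Within groups, deviations of Adra1d had r = -0.357 with those of the smooth muscle score (permutation p = 0.295, adjusted p = 0.671). The part of smooth muscle RNA in the Adra1d levels was not tested beyond this relation and the smooth muscle score as a covariate.

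**Figure D3:**
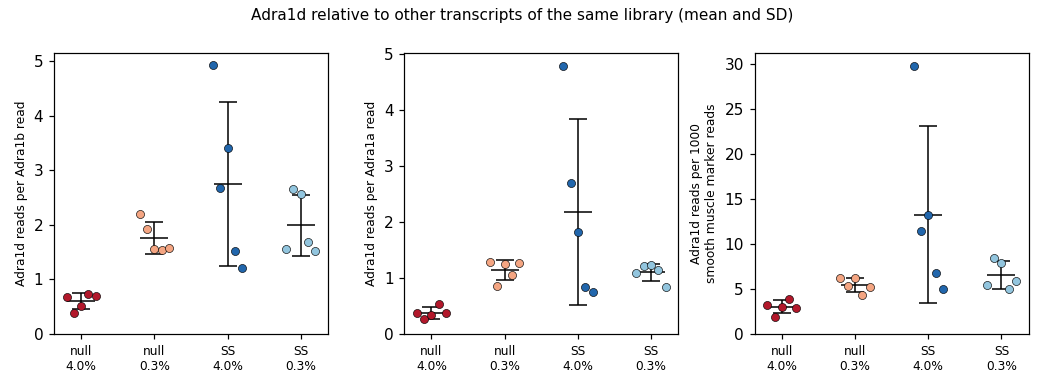
Adra1d reads relative to other transcripts of the same library, by group, with mean and SD. On every scale the 5 null rats on high salt sit below the other groups, at 0.388 to 0.739 Adra1d reads per Adra1b read.

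Adra1b encodes the alpha1B receptor and was the steadiest member. Its counts were 306, 333, 332, 298 and 270 in null rats on high salt, against 214, 182, 197, 216 and 237 in null rats on low salt. In SS rats they were 279, 272, 222, 256 and 252 on high salt, against 189, 171, 165, 197 and 198 on low salt. Within each genotype every high-salt value exceeded every low-salt value.

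Adra1b rose with salt by 0.56 ± 0.10 in null rats (adjusted p = 0.00422) and by 0.47 ± 0.10 in SS rats (adjusted p = 0.0031). The salt effects differed by 0.09 between genotypes, with a 95% interval of -0.21 to 0.38. Between null and SS rats the difference was 0.27 ± 0.10 on high salt (adjusted p = 0.104) and 0.18 ± 0.10 on low salt (adjusted p = 0.358), neither past the threshold. The rise in null rats was called in all 36 alternatives. In SS rats it was not called with the tubule score as a covariate (0.34, adjusted p = 0.371) or with the mitochondrial share as one (0.45, adjusted p = 0.0845). By mean the order was null high salt, SS high salt, null low salt and SS low salt, at 308 ± 26.1, 256 ± 22.1, 209 ± 20.6 and 184 ± 15.2, and each neighbouring pair overlapped.

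Adra1a encodes the alpha1A receptor, known in the rat for adrenergic constriction of renal vessels. In null rats its counts were 559, 488, 501, 410 and 518 on high salt, against 364, 409, 247, 312 and 294 on low salt. The diets did not overlap, though 410 and 409 nearly met. In SS rats they were 286, 268, 415, 465 and 406 on high salt, against 270, 373, 343, 290 and 356 on low salt. In this genotype the 2 diets overlapped, with rats 1 and 2 of the high-salt group low.

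Adra1a rose with salt in null rats by 0.62 ± 0.15 (adjusted p = 0.0222) and differed by 0.15 ± 0.15 in SS rats (adjusted p = 0.547). The difference between these effects, 0.47 ± 0.22, did not pass the threshold (adjusted p = 0.257), so the salt effect was not shown to differ between genotypes. On high salt the mean was 495 ± 54.4 in null rats and 368 ± 86.3 in SS rats (0.45 ± 0.15, adjusted p = 0.0669), a difference past the threshold with DESeq2 (adjusted p = 0.0491) and without SS high-salt rat 4 (adjusted p = 0.0285). The call for salt in null rats was lost without null high-salt rats 1 or 5 (adjusted p = 0.0521 and 0.0553) or null low-salt rats 3 or 5 (0.0611 and 0.0548). Order by mean ran from null high salt to SS high salt, then SS low salt at 327 ± 44.2 and null low salt at 325 ± 62.9, and the last 3 did not differ beyond their spread.

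Adra2a encodes the alpha2A receptor, best known as the autoreceptor that limits noradrenaline release from sympathetic endings. Counts were 194, 156, 214, 286 and 180 in null rats on high salt, against 124, 89.7, 125, 85.7 and 113 in null rats on low salt. In SS rats they were 118, 182, 114, 151 and 225 on high salt, against 115, 36.5, 39.1, 85.5 and 104 on low salt. The diets did not overlap in null rats and met only at 114 and 115 in SS rats.

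In SS rats Adra2a rose by 1.15 ± 0.28 (adjusted p = 0.00655), the largest salt difference of the 6 genes in that genotype, with means of 158 ± 46.8 on high and 76.1 ± 36.5 on low salt. In null rats it was 0.92 ± 0.28 (adjusted p = 0.0526), just short of the threshold, with means of 206 ± 49.5 on high and 108 ± 18.8 on low salt. In 14 of 36 alternatives the null difference passed, among them edgeR (adjusted p = 0.035) and DESeq2 (adjusted p = 0.00772). Among these 14 were the fits without SS high-salt rats 1 or 5 (0.0375 and 0.0464) and without SS low-salt rats 1, 2 or 3 (0.042, 0.0328 and 0.0374). The salt effects differed by -0.23 between genotypes, with a 95% interval of -1.04 to 0.58. With the tubule score or the mitochondrial share as a covariate, the call in SS rats was lost (0.98 and 1.21, adjusted p = 0.344 and 0.0922). Both covariates differed between the SS diets without overlap, so these fits cannot separate them from diet. Fibroblast markers moved with these groups: 7 of 8 were higher with salt in SS rats, beside 9.52% of all genes, and 1 of 8 in null rats, beside 3.06%. Their summed share of reads outside mitochondrially encoded genes was 0.119% to 0.171% in null high salt, 0.0983% to 0.126% in null low salt, 0.118% to 0.190% in SS high salt and 0.0535% to 0.0827% in SS low salt. Their part in the Adra2a result was not tested.

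Adra2b encodes the alpha2B receptor, the alpha2 subtype known in rat kidney for its presence in tubules. Its counts were 2239, 2196, 2897, 2694 and 2716 in null rats on high salt, against 1770, 1762, 1841, 1565 and 1726 in null rats on low salt. In SS rats they were 2753, 2097, 1878, 1964 and 2010 on high salt, against 1988, 2383, 2599, 1818 and 2224 on low salt. Every null rat on high salt exceeded every null rat on low salt, while the diets overlapped in SS rats.

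Adra2b rose with salt in null rats by 0.55 ± 0.11 (adjusted p = 0.00586), a call held in all 36 alternatives. In SS rats it differed by -0.04 ± 0.11 (adjusted p = 0.823), and by 0.35 when libraries were scaled to their totals (adjusted p = 0.0241), a scaling under which the median of all genes moved by 0.38. Null rats thus had a salt effect higher by 0.59 ± 0.15 (interaction, adjusted p = 0.0375). That difference lost its call in 16 of 36 alternatives, including the tubule score as a covariate (0.35, adjusted p = 0.777), under which 0 of all genes were called, and the library total scaling (0.33, adjusted p = 0.236). Leaving out any 1 of null low-salt rats 1, 2, 4 and 5 (adjusted p = 0.0504, 0.0553, 0.0707 and 0.0632), null high-salt rats 3, 4 and 5 (0.0735, 0.0736 and 0.0681), SS low-salt rats 2, 3 and 5 (0.0666, 0.0639 and 0.058) or SS high-salt rats 2 and 3 (0.0642 and 0.0715) also ended it.

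Between genotypes, Adra2b averaged 2548 ± 313 in null rats and 2140 ± 352 in SS rats on high salt, a difference of 0.26 ± 0.11 (adjusted p = 0.128). Without SS high-salt rat 1 it was 0.35 (adjusted p = 0.0448), and it also passed with library weights (0.021) and with the smooth muscle score as a covariate (0.0377). On low salt it averaged 1733 ± 103 in null rats and 2202 ± 310 in SS rats, a difference of -0.34 ± 0.11 (adjusted p = 0.112), and -0.40 without SS low-salt rat 4 (adjusted p = 0.0494). Proximal tubule markers summed to 1.45% of reads in null high salt, 1.41% in null low salt, 1.30% in SS high salt and 1.60% in SS low salt, and those of the loop and distal tubule to 0.582%, 0.786%, 0.491% and 0.976%, in the same order. Within groups, deviations of Adra2b had r = 0.435 with those of the tubule score (permutation p = 0.0302, adjusted p = 0.181). Spearman's rho was 0.504 (permutation p = 0.0414, adjusted p = 0.294). The part of tubule RNA in the Adra2b levels was not tested beyond this relation and the covariate above.

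Adrb1, the beta1 receptor gene, was called in none of the 5 comparisons. Its counts were 270, 227, 265, 245 and 246 in null rats on high salt, against 247, 243, 322, 318 and 299 in null rats on low salt. In SS rats they were 225, 228, 317, 297 and 283 on high salt, against 320, 262, 209, 229 and 224 on low salt. All 4 groups overlapped, with means from 249 ± 44.3 in SS low salt to 286 ± 38.3 in null low salt. The log2 difference with salt was -0.18 in null rats, with a 95% interval of -0.45 to 0.09, and 0.12 in SS rats, with an interval of -0.15 to 0.39.

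Among the other adrenergic receptor genes, Adrb3 was not found by name among the 16672 genes and so was not analysed here. Adra2c, encoding the alpha2C receptor, was rare, with group means of 33.3 in null high salt, 30.8 in null low salt, 22.8 in SS high salt and 25.6 in SS low salt. It was called in none of the 5 comparisons.

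Rats of 1 group differed unequally across the members. The residual SD of Adra1d was 0.49 on the log2 scale, against 0.083 from counting error alone, and 98.5% of the 2598 genes of like level had a smaller one. Adra2a also had 0.49, with a counting error of 0.15 and 94.8% of 1562 genes below it. At the other end, Adra1b had 0.13 with a counting error of 0.097, and 3.01% of 2028 genes of like level varied less. Among deviations from the group means over 20 libraries, Adra1d and Adra2b had a Pearson r of 0.55 and Adra1a and Adra1b one of -0.42, given as descriptions.

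Within groups, Adra1d and Adra2b were lower in libraries with more blood endothelial RNA, and their relations to pericyte markers ran the same way. Deviations of Adra1d from its group means had r = -0.756 with those of the mean log2 level of 13 blood endothelial markers (20 libraries, permutation within groups, two-sided p = 0.00245, adjusted p = 0.0441 over 54 relations). Spearman's rho was -0.656 (permutation p = 0.00506, adjusted p = 0.0865). The r was -0.515 without the 2 libraries farthest out on the marker level and -0.602 without SS high-salt rat 1. For Adra2b, r was -0.805 (permutation p = 9.7e-04, adjusted p = 0.0441) and rho -0.720 (permutation p = 0.00224, adjusted p = 0.0629), with r = -0.730 without the 2 farthest libraries. With the pericyte markers r was -0.681 for Adra1d (permutation p = 0.00946) and -0.686 for Adra2b (permutation p = 0.0118), and with the smooth muscle markers it was -0.622 for Adra2b (permutation p = 0.0116), each with an adjusted p of 0.0908. In this order they were -0.583, -0.408 and -0.424 without the 2 farthest libraries. Without SS high-salt rat 1 they were -0.500, -0.538 and -0.446. No test set one marker list against another. A positive relation tied Adra2a to the fibroblast markers, with r = 0.734 (permutation p = 0.00238, adjusted p = 0.0441), rho 0.741 (permutation p = 0.00233, adjusted p = 0.0629) and r = 0.623 without the 2 farthest. By rank none of the 54 relations passed after adjustment, and by Pearson's r these 3 did. On high salt 4 of the 13 endothelial markers were higher in null rats and 0 lower, beside 3.70% and 4.82% of all genes. These markers summed to 0.292% to 0.361% of reads in null rats and 0.167% to 0.315% in SS rats. Their part in the Adra1d difference between genotypes was not tested.

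**Figure D4:**
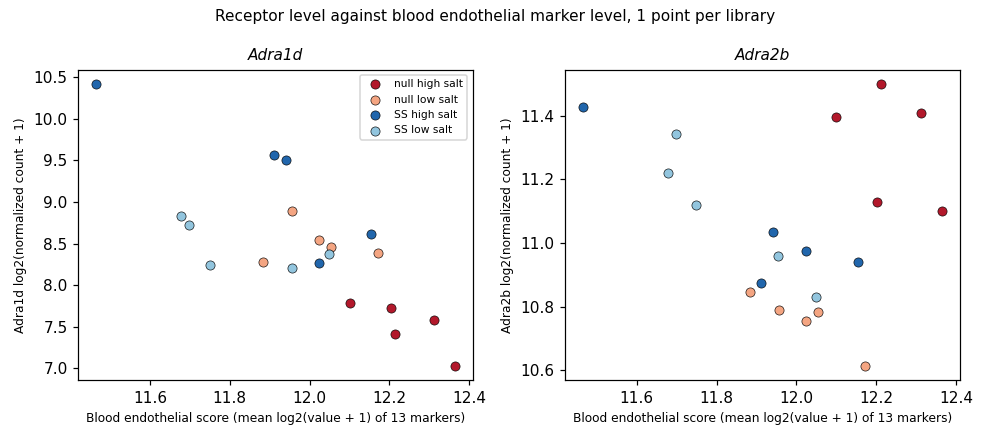
Log2 level of Adra1d and of Adra2b (y axes) against the mean log2 level of 13 blood endothelial markers (x axis), 1 point per library, coloured by group. Rat 1 of the SS high-salt group has the lowest marker level, 11.5, and the highest Adra1d.

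Genes most like each member over the 20 libraries were picked by Pearson's r among 12751 named genes with a mean of at least 50. Adra1d was most like C4a, a complement C4 gene (r = 0.947, rho = 0.896), Ptchd3 (0.937, rho = 0.868) and the metalloproteinase gene Adamts1 (0.930, rho = 0.901). C4 genes have near-identical copies, so the reads of C4a are uncertain. Adra1b was most like Nckap5l (r = 0.926), the Wnt inhibitor Frzb (0.872) and the collagen Col5a2 (0.871). For deviations from group means these r were 0.744, 0.249 and 0.501. Adra2a was most like Olfml3 (0.908), the fibroblast collagen Col1a2 (0.902) and Antxr2 (0.899). The other members had looser matches, with r of 0.868 for Adra1a and the zinc transporter gene Slc30a4, 0.831 for Adra2b and the cochaperone gene Fkbp4, and 0.789 for Adrb1 and Hmgxb4. These are descriptions over libraries that share their groups and normalization.

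Downstream of the alpha1 receptors, 3 of 20 genes of Gq and calcium signalling rose with salt in SS rats, beside 9.52% of all genes, and 1 of 20 in null rats, beside 3.06%, with 0 lower in each. Both counts are near the shares of all genes. Those in SS rats were Plcb2 and Plcb3, phospholipase C beta genes, and the protein kinase C gene Prkcd. The list's median log2 difference was 0.014 in SS rats and 0.051 in null rats. Plcb2 averaged 144 ± 13.2 in null rats on high salt and 138 ± 18.4 in null rats on low salt, and 228 ± 48.9 in SS rats on high salt and 101 ± 13.2 in SS rats on low salt. Its salt effect was lower in null than in SS rats by 1.07 on the log2 scale (-1.07 ± 0.21, adjusted p = 0.0111). The single gene of this list in null rats was the calcium release channel Itpr1 (0.28 ± 0.07, adjusted p = 0.0274), which was not called without null low-salt rat 4 (0.27, adjusted p = 0.0554). Plcb2 kept its call in SS rats and for the interaction in 35 of 36 alternatives each, Plcb3 in 34, Itpr1 in 30 and Prkcd in 16.

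On high salt, null rats differed from SS rats in 5 of these 20 genes, with 3 higher and 2 lower, beside 3.70% higher and 4.82% lower of all genes. Gna14, a Gq-class alpha subunit, was lower (-1.03 ± 0.19, adjusted p = 0.00226), at 118, 139, 146, 132 and 114 in null rats against 351, 310, 263, 199 and 231 in SS rats. These ranges did not overlap. Plcb2 was also lower (-0.64 ± 0.15, adjusted p = 0.013), while Itpr1 (0.25 ± 0.07) and the kinase gene Rock2 (0.42 ± 0.10) were higher. Gna14 kept its call in all 36 alternatives, Plcb2 in 35, Rock2 in 33 and Itpr1 in 23. Without SS high-salt rat 1, Itpr1 was at 0.22 and not called (adjusted p = 0.0966). On low salt 0 of 20 were called.

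The other arms are those of Gi, which lowers cAMP, and Gs, which raises it. Of 6 genes of Gi signalling, 1 fell with salt in SS rats and 0 rose, beside 7.73% lower and 9.52% higher of all genes. For a list of 6 genes these counts are near those shares. The gene was Gnai1 (-0.28 ± 0.09, adjusted p = 0.0386), with a reversed sign when libraries were scaled to their totals (0.11). In the other 4 comparisons 0 of 6 were called. Of 22 rows of Gs and cAMP signalling, 1 rose in SS rats with salt (Adcy7, an adenylyl cyclase, 1.30 ± 0.16, adjusted p = 2.12e-05) and 2 fell (the protein kinase A subunit gene Prkar2a, -0.44 ± 0.13, and 1 of the 2 rows named Gnas, -0.50 ± 0.15), beside 9.52% higher and 7.73% lower of all genes. With libraries scaled to their totals neither fall was called, at -0.056 for Prkar2a (adjusted p = 0.717) and -0.11 for Gnas (adjusted p = 0.473), and without SS high-salt rat 1 Gnas was at -0.35 (adjusted p = 0.0501). In null rats 1 rose, the phosphodiesterase Pde3b (0.51 ± 0.12, adjusted p = 0.0174). On high salt 5 of 22 were higher in null than in SS rats and 0 lower, beside 3.70% and 4.82% of all genes, among them Pde3b (0.58 ± 0.12), Akap12, Adcy5 and Pde3a. Without SS high-salt rat 1, Akap12 (0.40, adjusted p = 0.0903), Adcy5 (0.35, adjusted p = 0.0673) and Pde3a (0.49, adjusted p = 0.118) were not called. The salt effect on Adcy7 was lower in null rats by 1.07 on the log2 scale (-1.07 ± 0.23, adjusted p = 0.0166), and on low salt Adcy7 was higher in null rats (0.77 ± 0.16, adjusted p = 0.0318), the only call of the list there, beside 0.452% higher of all genes. Without null low-salt rat 4 that difference was 0.78 and not called (adjusted p = 0.0807). The call of Adcy7 held in 36 of 36 alternatives for salt in SS rats, in 34 for the interaction and in 25 on low salt. Gnai1 held in 23, Prkar2a in 29, Gnas in 27, Pde3b in 35 in both of its comparisons, Akap12 in 27, Pde3a in 26 and Adcy5 in 25.

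Among 12 genes of receptor desensitisation, 3 rose with salt in SS rats, beside 9.52% of all genes, and 0 in null rats, beside 3.06%. They were Rgs16 and Rgs2, which switch off G protein signalling, and Arrb2, an arrestin. Rgs16 rose by 1.00 ± 0.18 in SS rats (adjusted p = 7.21e-04), and its salt effect was lower in null rats (-1.05 ± 0.26, adjusted p = 0.0309). On high salt Rgs5 (0.82 ± 0.19, adjusted p = 0.0123) and Rgs4 (0.71 ± 0.20, adjusted p = 0.0288) were higher in null rats. Without SS high-salt rat 1, Rgs4 was at 0.49 and not called (adjusted p = 0.0799), and the Rgs16 interaction was not called without null low-salt rat 4 (-1.02, adjusted p = 0.0542) or without both (-0.99, adjusted p = 0.0763). Of 36 alternatives, Rgs16 kept its call in 35 for salt in SS rats and in 27 for the interaction, Rgs2 in 29, Arrb2 in 34, Rgs5 in 36 and Rgs4 in 33. Rgs5 is also one of the pericyte markers, of which 4 of 7 were higher in null rats on high salt, beside 3.70% of all genes. These markers had summed shares of 0.0738% to 0.0909% of reads in null and 0.0367% to 0.0659% in SS rats. Their part in the Rgs5 difference was not tested.

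Plcb2, Adcy7 and Rgs16 are also expressed by leukocytes, so T cell and macrophage markers are given for the same groups. All 7 T cell markers tested were higher with salt in SS rats and 0 of 7 in null rats, beside 9.52% and 3.06% of all genes. Their summed share of reads ran from 0.00317% to 0.00431% in null high salt, from 0.00364% to 0.00439% in null low salt, from 0.005% to 0.00831% in SS high salt and from 0.00243% to 0.00407% in SS low salt. Of 7 macrophage markers, 4 were higher with salt in SS rats and 0 in null rats, beside the same shares. Between genotypes on high salt, 1 macrophage marker was higher and 1 lower in null rats. Of the 7 T cell markers 0 were higher and 3 lower there, beside 3.70% higher and 4.82% lower of all genes. For the interaction 2 of 7 T cell markers and 0 of 7 macrophage markers were lower, beside 1.76% of all genes, and 0 were higher. The summed macrophage share averaged 0.0577% in null high salt, 0.0515% in null low salt, 0.0578% in SS high salt and 0.0405% in SS low salt. The part of T cells or macrophages in the levels of Plcb2, Adcy7 and Rgs16 was not tested.

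**Figure D5:**
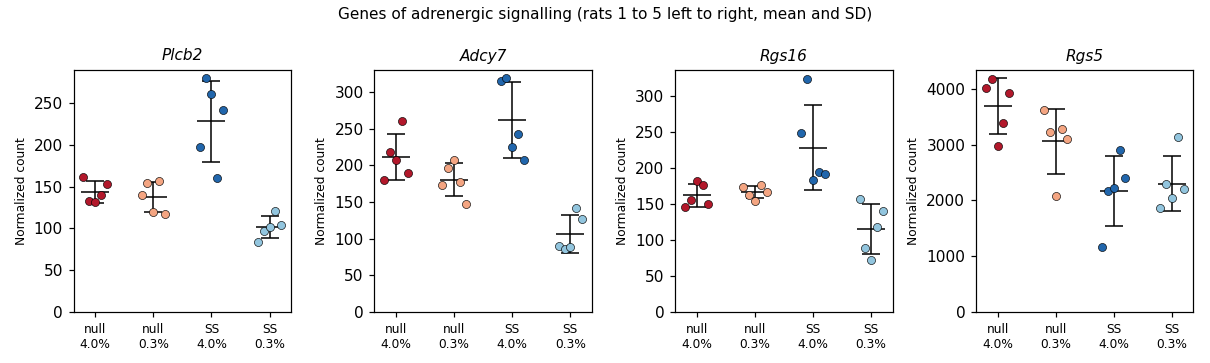
Normalized counts of Plcb2, Adcy7, Rgs16 and Rgs5 in each library, rats 1 to 5 from left to right within a group, with the group mean and SD. Plcb2 averages 144 in null rats on high salt and 138 in null rats on low salt, and 228 and 101 in SS rats on the same diets.

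Of 11 genes of catecholamine handling tested, 2 fell with salt in SS rats, beside 7.73% of all genes. They were the organic cation transporter Slc22a2 (-1.02 ± 0.19, adjusted p = 9.16e-04) and Rnls, which encodes renalase (-0.55 ± 0.11, adjusted p = 0.00252). Both held in 34 of 36 alternatives, and Rnls was at -0.16 when libraries were scaled to their totals (adjusted p = 0.359). In the other 4 comparisons 0 of 11 were called. Slc22a2 is a transporter of the proximal tubule. Of 12 proximal tubule markers 2 fell, 1 rose and 9 were not called with salt in SS rats, beside 7.73% lower and 9.52% higher of all genes. Among 9 loop and distal tubule markers 7 fell and 2 were not called. Their part in the fall of Slc22a2 was not tested beyond the tubule score as a covariate, with which it was -0.44 and not called (adjusted p = 0.508). The enzymes of noradrenaline and adrenaline synthesis Th, Dbh and Pnmt and the noradrenaline transporter Slc6a2 were not found by name among the 16672 genes. They were therefore not analysed here. Of 9 nerve and Schwann cell markers, Uchl1 and Tubb3 rose with salt in SS rats and had a lower salt effect in null rats (-1.67 ± 0.33, adjusted p = 0.0114, and -1.99 ± 0.51, adjusted p = 0.0401). The summed nerve marker share was 0.00613% to 0.00900% in null high salt, 0.00672% to 0.00773% in null low salt, 0.00614% to 0.00725% in SS high salt and 0.00508% to 0.00810% in SS low salt, and these ranges overlapped.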

How the data were processed

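RNA of dissected kidney microvessels was sequenced in 20 libraries, with TRIzol extraction, DNase treatment and poly A selection per the labels' protocols. Per the submitters' processing notes, the tools were Trim Galore, MultiQC, STAR 2.7.11b, featureCounts 2.0.6, Subread and DESeq2 1.44 on the build mRatBN7.2. Their settings, and whether counting used strand, are not stated by these sources. The authors deposited normalized counts, a signal per gene in which each library's reads are divided by a factor. Dividing by the value of 1 read gave whole numbers for 100% of values (tolerance 1e-06), so reads could be recovered.

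Differences were tested with limma 3.58.1 in R 4.3.3 on log2(normalized count + 1), in 1 fit of 4 group means with a mean trend. Genes with at least 10 normalized counts in at least 5 libraries were tested (16153, with 519 removed). P-values were adjusted over all of them by Benjamini and Hochberg within a comparison, at a threshold of 0.05, and adjusted p-values of single genes are limma's unless edgeR or DESeq2 is named. Errors are SDs for levels and standard errors for log2 differences, which understate changes of rare genes. The interaction subtracts the salt effect of SS rats from that of null rats. Relations between receptor and marker levels used 100000 permutations within groups. Counting errors cover the number of reads only.

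The 36 alternatives were 20 fits without 1 rat and 16 others: pseudocounts, filters, scalings, quantile normalization, a fit of 2 groups alone, weighted libraries, a block for rat number, tubule, smooth muscle and mitochondrial covariates, 2 libraries left out, and edgeR 4.0.16 and DESeq2 1.42.0 on recovered reads. The tubule score is the mean log2 level of the tubule marker lists. In SS rats it ran from 12.72 to 12.82 on high salt and from 12.98 to 13.26 on low salt. The mitochondrial share ran from 6.90% to 20.4% and from 22.6% to 42.5%, in the same order. Neither overlapped between these diets, so a fit with either covariate cannot separate it from diet in SS rats.

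The members and gene lists were chosen with earlier results of these data known. Named are the 6 members, Adra2c, up to 4 called genes of smallest p per pathway list and comparison, the 3 genes most like each member, and markers of cell types. A few genes within these lists are not reported here.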

Additional observations from a re-analysis of the deposited data

Results flagged for a closer look

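Adra2b in rat 1 of the SS high-salt group had a normalized count of 2753, while the other 4 rats of the group lay between 1878 and 2097. Its gap to the nearest rat was large for a group of 5. Of 24 groups of receptor values checked, this was the only one so far apart, and chance alone gives about 1 in 20. The same library had the highest Adra1d, at 1370, and the lowest blood endothelial marker level.

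The salt effect on Adra1d differed between genotypes by -1.80 on the log2 scale (null minus SS), with opposite directions in null and SS rats. For Adra2b the corresponding difference was 0.59, with a rise in null rats and no call in SS rats.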

How the results depend on the processing

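The number of the 6 receptor genes called for salt in SS rats was 3, and became 6 when libraries were scaled to their totals and 0 with the tubule score or with the mitochondrial share as a covariate. For salt in null rats it was 4, and became 5, with Adra2a added, with edgeR, DESeq2, quantile normalization, total scaling, library weights, the fit alone, a pseudocount of 8, a filter of 100 or the smooth muscle score, and 2 to 5 when 1 rat was left out. For the interaction it was 2, and became 1 with total scaling, with the mitochondrial share or with the rat number as a replicate block, 0 with the tubule score, and 1 to 2 when 1 rat was left out. Between null and SS rats on high salt it was 1, and became 2 with library weights, the smooth muscle score, DESeq2 or 2 libraries left out, and 1 to 2 when 1 rat was left out. On low salt it was 0, and became 3 with total scaling and 0 to 1 when 1 rat was left out. The replicate block, which ended the interaction call of Adra2b (adjusted p = 0.0575), changed no other count of receptor genes. Deviations of libraries with the same rat number correlated at -0.16 to 0.14 over 30 pairs, 5 of them above 0.1. The labels do not say whether the numbers pair the rats, and these correlations cannot settle it. The causes were not tested. Scaling to totals shifted the all-gene median by 0.38 for salt in SS rats, 0.12 for salt in null rats, -0.27 for the interaction and 0.26 between genotypes on low salt.

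Signs that turned were mostly of differences not called, but include the called falls of Gnai1 (-0.28) and Gnas (-0.50) in SS rats. Adra1a between genotypes on low salt became 0.25 with total scaling, 0.059 with totals without mitochondrially encoded genes, 0.041 with library weights, 0.042 with the tubule score and 0.012 with the mitochondrial share, and ran from -0.10 to 0.078 when 1 rat was left out. Adra1d there became -0.017 with the mitochondrial share and ran from -0.060 to 0.12 when 1 rat was left out. Adra2b for salt in SS rats became 0.35 with total scaling, 0.027 with totals without mitochondrially encoded genes and 0.22 with the tubule score, and ran from -0.14 to 0.019 when 1 rat was left out. With total scaling the interaction became -0.18 for Adra1b and -0.10 for Adra2c, and salt in SS rats became 0.32 for Adra2c and 0.11 for Gnai1. For Adra2c in SS rats it was 0.025 with totals without mitochondrially encoded genes, 0.059 with 2 libraries left out and -0.34 to 0.14 when 1 rat was left out. Adra2c in null rats became -0.12 with the mitochondrial share and -0.033 to 0.19 when 1 rat was left out, its interaction -0.034 to 0.44, and its difference on low salt -4.5e-04 with library weights. Gnas in SS rats became 2.2e-05 with the mitochondrial share.

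Counts over all genes also moved. For salt in SS rats 2787 genes were called, against 8929 with total scaling, 1570 in a fit of those groups alone, 823 with the mitochondrial share and 141 with the tubule score. For salt in null rats the count was 891, against 2053 in the fit alone, 2628 with weights, 1773 with the smooth muscle score and 1645 with DESeq2. The interaction had 409, against 1082 with total scaling, 824 with DESeq2, 237 without the 2 libraries, 173 with the mitochondrial share and 0 with the tubule score. Null against SS rats gave 1376 on high salt, against 848 without the 2 libraries, 703 with the smooth muscle score, 592 with total scaling and 387 with the tubule score. On low salt 90 were called, against 2 with the tubule score and 4059 with total scaling at the extremes.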
